A study of Mus musculus with 24 samples.

Results

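Leukocyte genes of the mouse intestine were examined as a panel of 36 members: 15 myeloid genes, 16 lymphoid genes and 5 genes that most leukocytes share. Members were chosen by symbol, and a gene was read from the probe set that names it alone. This held for 35 members of the 30702 genes read in all. Lck, a kinase of T cell receptor signalling, was not analysed here. The measured members were thus 15 myeloid, 15 lymphoid and 5 shared genes.

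RNA was measured on 24 one-colour arrays in 6 groups of 4. Fetal organoids were grown from intestine of embryonic stage E19 and adult organoids from adult intestine, each sampled at day 3 and day 30 of culture in ENR medium. The remaining groups were uncultured newborn (P0) and uncultured adult intestine. The labels give no strain, sex, genotype or intestinal segment, and P0 intestine is not of the stage from which the fetal organoids were grown. Nor do they state if replicates come from different animals or cultures, and p-values then reflect only how much the arrays of a group vary, possibly for technical reasons. Organoids are cultures of intestinal epithelium that grow from isolated crypts or epithelial fragments, without a supply of blood cells.

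The gut wall holds one of the largest populations of leukocytes in the body. Macrophages of the lamina propria depend on the growth factor receptor encoded by Csf1r, take up debris and microbes, and make complement C1q. Lymphocytes settle among the epithelial cells and in the lamina propria, and many intraepithelial lymphocytes carry CD8, the integrin CD103 that binds E-cadherin, and granzymes. Macrophages are present in the intestine before birth, while most intestinal lymphocytes arrive after it.

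The deposited values are log2 signals, so a difference of 1 is a 2-fold change. Levels are given for replicates 1 to 4 in that order, and a difference is given as the log2 difference of group means (n = 4 per group) ± SE with limma's adjusted p. Genes count as called where that p, adjusted over all genes, is under 0.05. As a background served each array's median over its negative control probe sets, 3.84 to 4.61. All but a small share of these probe sets lay below a limit of 7.27 to 8.06, depending on the array. Most member levels lay below that limit too. A level above the background therefore does not by itself show that a gene was detected. Where the mean of a group lies below the background, the size of the difference is uncertain. All organoid arrays carried the X-inactivation RNA Xist (9.81 to 11.58), as did P0 arrays 1 and 4 (10.53 and 10.60), while P0 arrays 2 and 3 (3.81 and 4.02) and adult tissue (3.77 to 4.24) did not. Sex of the source animals therefore cannot be told apart from culture in the comparison of adult organoids with adult tissue. Fetal day 3 replicate 1 had the highest background probe level of all arrays (4.04, against 3.03 to 3.63 on the other 23). Fetal day 3 replicates 2 and 3 carried stomach genes: gastrokine 1 (Gkn1), of the stomach lining, read 10.33 and 10.15 there, 6.87 and 4.64 on replicates 1 and 4 and at most 5.28 on the other 20 arrays. Fetal day 3 replicate 1 carried stomach genes too, at lower levels: Muc5ac read 6.36 and Cldn18 7.66 there, against 4.48 and 5.87 on replicate 4. Leaving out replicates 2 and 3 thus does not remove every array with stomach genes. Where leaving fetal day 3 replicates 2 and 3 out ends or adds a call of a member, the value without them is given. In bulk RNA, fewer cells of a type and less RNA per cell cannot be told apart.

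**Figure D1:**
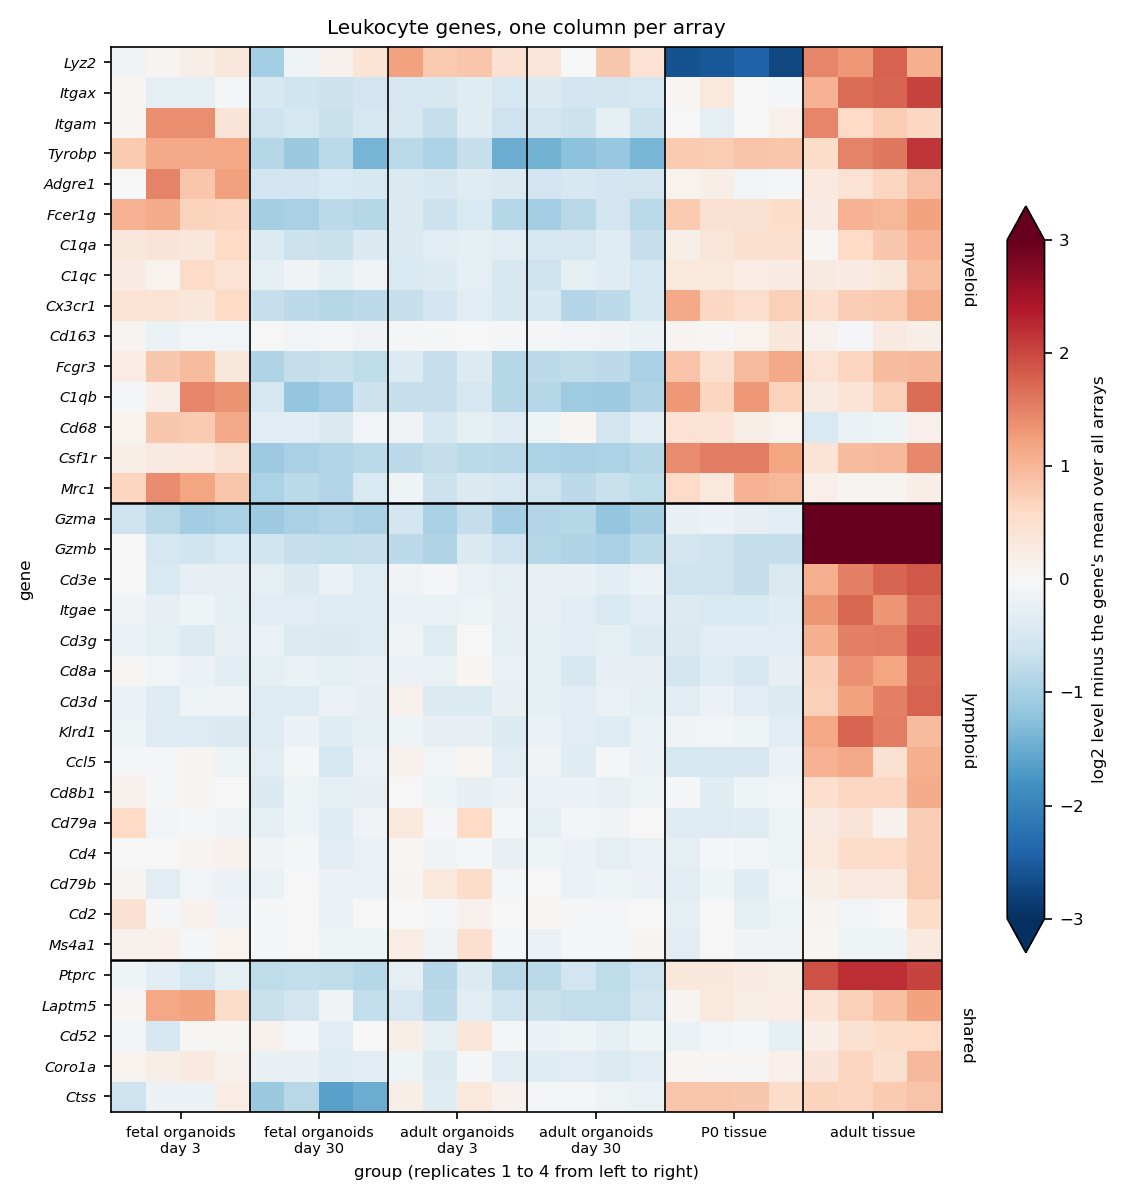
Log2 level of each of the 35 measured genes (rows) on each of the 24 arrays (columns, grouped), minus the gene's mean over all arrays; the colour scale ends at 3 in either direction. Most lymphoid genes are high in adult tissue only, while most myeloid genes are high in both tissues and in fetal organoids at day 3.

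The classes differed in where they were highest. Of 15 lymphoid genes, 14 had their highest group mean in adult tissue, and the exception was Ms4a1, the B cell gene of CD20. Of 15 myeloid genes, 8 were highest in adult tissue, 4 in P0 tissue and 3 in fetal organoids at day 3. The mean over the 15 lymphoid genes lay between 5.34 and 5.84 on the adult tissue arrays and between 3.96 and 4.34 on all other arrays. The mean over the 15 myeloid genes lay between 6.20 and 6.79 in adult tissue and between 5.99 and 6.11 in P0 tissue. It lay between 6.02 and 6.40 in fetal organoids at day 3 and did not exceed 5.43 on any other organoid array. The gap between the tissues depended on the lysozyme gene Lyz2, whose signal is uncertain. Without Lyz2 the myeloid mean was 5.88 to 6.53 in adult tissue and 5.94 to 6.07 in P0 tissue, so the tissues overlapped. In fetal organoids at day 3 it was then 5.80 to 6.18. Of the lymphoid genes, 11 of 15 had a P0 mean below the background and 4 of 15 an adult tissue mean below it. Of the myeloid genes, 1 of 15 lay below it in each tissue, namely Cd163, a scavenger receptor gene.

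**Figure D2:**
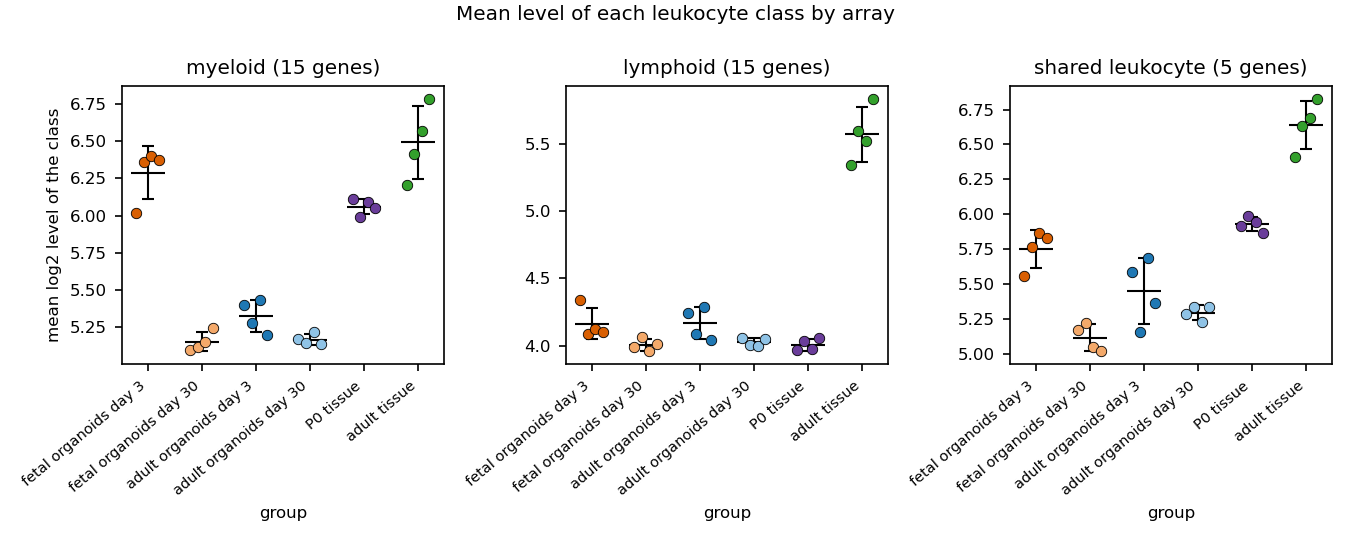
Mean log2 level of the myeloid, lymphoid and shared leukocyte genes on each array (points), with the mean and SD of each group of 4 arrays (lines). Myeloid means, which include Lyz2, lie between 5.99 and 6.79 in both tissues and in fetal organoids at day 3. Without Lyz2 the myeloid means of the tissues overlap (not drawn). Lymphoid means lie above 4.34 in adult tissue alone.

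Adult intestine was compared with P0 intestine, which shows how the leukocyte genes differ between the newborn and the grown gut. Lymphoid genes were higher in adult tissue: 14 of 15 were called higher and 0 lower, with a median difference of 1.51 and 13 without overlap between the groups (17.2% of all genes were higher without overlap), against 0.08 over all genes, of which 27.1% were called, 15% as higher and 12.2% as lower. Myeloid genes were mixed, with 5 of 15 called higher, 2 lower and 8 not called, and a median difference of 0.16. The shared genes followed in between, with 4 of 5 called higher and a median of 0.60.

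The granzymes, proteases with which cytotoxic lymphocytes kill their targets, had the largest lymphoid differences. Gzma read 4.16, 4.19, 4.11 and 4.03 in P0 tissue and 7.83, 8.30, 8.23 and 8.65 in adult tissue. Gzmb read 3.94, 3.86, 3.77 and 3.75 in P0 tissue and 7.78, 7.76, 7.73 and 7.76 in adult tissue. The groups did not overlap for either gene, and both P0 means lay below the background. The differences were 4.13 ± 0.13 for Gzma (adjusted p = 1.6e-16) and 3.93 ± 0.11 for Gzmb (adjusted p = 1.3e-17), both uncertain in size. All 16 organoid arrays read at most 3.79 for Gzma and at most 4.5 for Gzmb.

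The 250 bases before the start of both granzyme genes are shown because these genes had the largest lymphoid differences between the tissues. They were searched for TGTGGT, the core letters bound by Runx factors, on both strands, so also as ACCACA, and the matches are in capitals. The sequences are from RefSeq on build GRCm38.p6, 5′ to 3′ on the minus strand, at chr13:113100982-113101231 for Gzma and chr14:56262335-56262584 for Gzmb.
Gzma: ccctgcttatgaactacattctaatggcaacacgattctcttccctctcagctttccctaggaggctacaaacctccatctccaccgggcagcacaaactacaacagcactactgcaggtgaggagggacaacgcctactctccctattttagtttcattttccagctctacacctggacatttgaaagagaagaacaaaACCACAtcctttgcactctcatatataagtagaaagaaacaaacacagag
Gzmb: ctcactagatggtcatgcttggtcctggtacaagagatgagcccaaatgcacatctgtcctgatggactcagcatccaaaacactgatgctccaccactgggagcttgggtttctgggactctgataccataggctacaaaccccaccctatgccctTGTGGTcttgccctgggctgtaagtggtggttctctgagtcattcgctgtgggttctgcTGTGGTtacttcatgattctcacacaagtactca
Gzma has 1 match, whose first base lies 50 bases before the start. Gzmb has 2 matches, at 93 and 34 bases before it. Of all 32851 promoter windows of this length, 14% hold the motif. Promoter windows were at hand for 22 of the 35 measured members, and 2 of 7 lymphoid and 3 of 11 myeloid members hold it. A match is a run of letters and does not show that a factor binds there.

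The genes of the T cell receptor complex were all higher in adult tissue. Cd3e, Cd3g and Cd3d encode its signalling chains and lie next to each other on chromosome 9. Cd3e read 4.14, 4.14, 4.03 and 4.33 in P0 tissue and 5.84, 6.27, 6.51 and 6.62 in adult tissue (2.15 ± 0.12, adjusted p = 4.9e-12). Cd3g (1.86 ± 0.12, adjusted p = 2e-11) and Cd3d (1.61 ± 0.15, adjusted p = 1.4e-08) were higher by similar amounts. No array of one tissue overlapped the other for any of the 3, and their P0 means lay below the background.

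The coreceptors were both higher. Cd8a, the chain carried by most intraepithelial T cells, read 4.26, 4.41, 4.33 and 4.57 in P0 tissue and 5.54, 6.18, 5.99 and 6.52 in adult tissue (1.67 ± 0.14, adjusted p = 1.5e-09). Its neighbour Cd8b1 differed by 0.87 ± 0.10 (adjusted p = 4.2e-07). Cd4, of helper T cells, differed by 0.68 ± 0.08 (adjusted p = 1.1e-06), but its mean lay below the background in all 6 groups. Itgae, which encodes the CD103 integrin chain, read 4.02 to 4.11 in P0 tissue and 5.79 to 6.20 in adult tissue (1.94 ± 0.08, adjusted p = 2.9e-14). Its P0 mean lay below the background. Klrd1, a receptor gene of natural killer cells and some T cells (1.51 ± 0.12), and the chemokine gene Ccl5 (1.35 ± 0.13) were higher as well, Klrd1 with all 6 group means below the background.

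B cell genes differed less. Cd79a and Cd79b, which encode the signalling chains of the B cell receptor, were higher by 0.70 ± 0.15 (adjusted p = 0.0013) and 0.59 ± 0.12 (adjusted p = 0.00081). The P0 mean of Cd79a lay below the background. Ms4a1 read 2.39 to 2.68 in P0 tissue and 2.57 to 2.98 in adult tissue, below the background throughout, and was not called (0.16 ± 0.11, adjusted p = 0.3). The smallest called lymphoid difference was that of Cd2, an adhesion molecule of T cells (0.32 ± 0.12, adjusted p = 0.044), whose mean lay below the background in both tissues and whose groups overlapped. The Cd2 call was lost when any 1 of 5 arrays was left out (P0 replicates 1, 3 and 4, adult replicates 1 and 4), and the difference was 0.19 (adjusted p = 0.22) without adult replicate 4. Ptprc, which encodes the pan-leukocyte protein CD45, read 4.20, 4.21, 4.11 and 4.04 in P0 tissue and 5.78, 6.08, 6.08 and 5.89 in adult tissue (1.82 ± 0.11, adjusted p = 1.8e-11). Its P0 mean lay below the background, so the size of the difference is uncertain. Ctss, a lysosomal protease of antigen-presenting cells, read 8.59 to 8.87 and 8.69 to 8.88 and was not called (-0.02 ± 0.17, adjusted p = 0.95).

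Myeloid genes went in both directions. Csf1r, the receptor for the macrophage growth factors CSF1 and IL-34, read 7.13, 7.25, 7.24 and 6.89 in P0 tissue and 6.12, 6.65, 6.68 and 7.15 in adult tissue, and was called lower (-0.48 ± 0.14, adjusted p = 0.01). Adult replicate 4 overlapped the P0 arrays and adult replicate 1 was the lowest. Without P0 arrays 2 and 3 its call ended (-0.36, adjusted p = 0.17), as it did in a fit of both tissues alone (adjusted p = 0.078). Mrc1, which encodes the mannose receptor CD206 of scavenging macrophages, read 5.80, 5.56, 6.28 and 6.24 in P0 tissue and 5.39, 5.31, 5.32 and 5.43 in adult tissue, without overlap (-0.60 ± 0.16, adjusted p = 0.0059).

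The called rises were led by integrin genes and Lyz2. Itgax, which encodes CD11c of dendritic cells and intestinal macrophages, read 4.84, 5.09, 4.77 and 4.75 in P0 tissue and 5.80, 6.45, 6.53 and 6.80 in adult tissue (1.53 ± 0.14, adjusted p = 6.4e-09). Its chromosome 7 neighbour Itgam, which encodes CD11b, read 5.24 to 5.66 in P0 tissue and 6.99, 6.12, 6.29 and 6.14 in adult tissue (0.90 ± 0.23, adjusted p = 0.0043). Itgam lost its call without P0 arrays 2 and 3 (0.79, adjusted p = 0.066). Tyrobp, an adaptor of activating myeloid receptors (0.63 ± 0.22, adjusted p = 0.037), and Adgre1, which encodes the macrophage antigen F4/80 (0.52 ± 0.19, adjusted p = 0.045), were called by a narrow margin, and their calls ended without any 1 of 7 of the 8 arrays. The count of myeloid genes called higher was 3 without any 1 of those arrays, namely P0 replicates 1 to 4 and adult replicates 2, 3 and 4, and 7 without adult tissue replicate 1.

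The macrophage genes that were not called included those of complement C1q, which lie next to each other on chromosome 4. C1qa read 6.31 to 6.62 in P0 tissue and 6.20 to 7.18 in adult tissue (0.26 ± 0.14, adjusted p = 0.17), and the differences were -0.22 ± 0.29 for C1qb and 0.16 ± 0.12 for C1qc. Cd68, a lysosomal glycoprotein of macrophages, read 6.52 to 6.85 in P0 tissue and 5.96 to 6.56 in adult tissue (-0.44 ± 0.17, adjusted p = 0.06), and was called lower with arrays centred on their median (-0.51, adjusted p = 0.039). Fcer1g, the common gamma chain of Fc receptors, differed by 0.31 ± 0.16 (adjusted p = 0.15). Cx3cr1, the fractalkine receptor of intestinal macrophages (0.03 ± 0.13), Fcgr3, a low-affinity IgG receptor with close homologues (-0.12 ± 0.16), and Cd163 (0.00 ± 0.08) had adjusted p of 0.61 or more.

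Lyz2, the lysozyme gene of macrophages, had the largest myeloid difference (3.98 ± 0.23, adjusted p = 3.2e-12), from 6.64, 6.70, 6.83 and 6.51 in P0 tissue to 10.72, 10.56, 11.01 and 10.31 in adult tissue. Lyz2 is nearly identical to the Paneth cell lysozyme gene Lyz1, so the signals of both are uncertain. Lyz1 read 5.46 to 6.07 in P0 tissue, 11.60 to 12.39 in adult tissue and 8.15 to 11.74 in organoids. Lyz2 itself read 8.23 to 10.44 on the 16 organoid arrays, all above the P0 arrays.

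Genes of other cell types differed between the tissues too. Of 11 mesenchyme and smooth muscle genes, 10 were lower in adult tissue, and their mean level lay between 8.31 and 8.92 in P0 and between 6.95 and 7.49 in adult tissue. Of 8 endothelial genes, 8 were lower, with means of 6.86 to 7.36 and 5.50 to 5.98. Of 12 epithelial genes, 9 were higher, with means of 9.59 to 9.69 and 10.21 to 10.52. Their part in the leukocyte differences was not tested.

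A wider list of T cell receptor signalling and T cell state genes moved with the lymphoid members: 22 of 26 were higher and 0 lower in adult tissue (median 0.50). Among them were Cd7, a surface protein of T and natural killer cells (2.46 ± 0.10, adjusted p = 7.7e-15), the receptor gene Cd96 (2.05 ± 0.16), Nkg7, of cytotoxic granules (1.67 ± 0.11), and the chemokine gene Xcl1 (0.96 ± 0.15). Of a wider list of 35 genes of macrophage growth, complement and scavenging, 13 were higher and 2 lower (median 0.18). Ms4a7 (1.24 ± 0.25) and Cybb, the catalytic chain of the phagocyte oxidase (1.15 ± 0.19), were among the higher genes. Both lower genes, Lyve1, a hyaluronan receptor of lymphatic vessels and some macrophages (-1.39 ± 0.15, adjusted p = 1.1e-07), and the folate receptor gene Folr2 (-0.94 ± 0.17, adjusted p = 0.00021), went the way of Mrc1. Of all called genes, 55.2% were higher in adult tissue, or 40.2% once each array was centred. Without P0 arrays 1 and 4, so that no tissue array carried Xist, 13 of 15 lymphoid genes were higher, and 3 of 15 myeloid genes were higher and 2 lower.

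**Figure D3:**
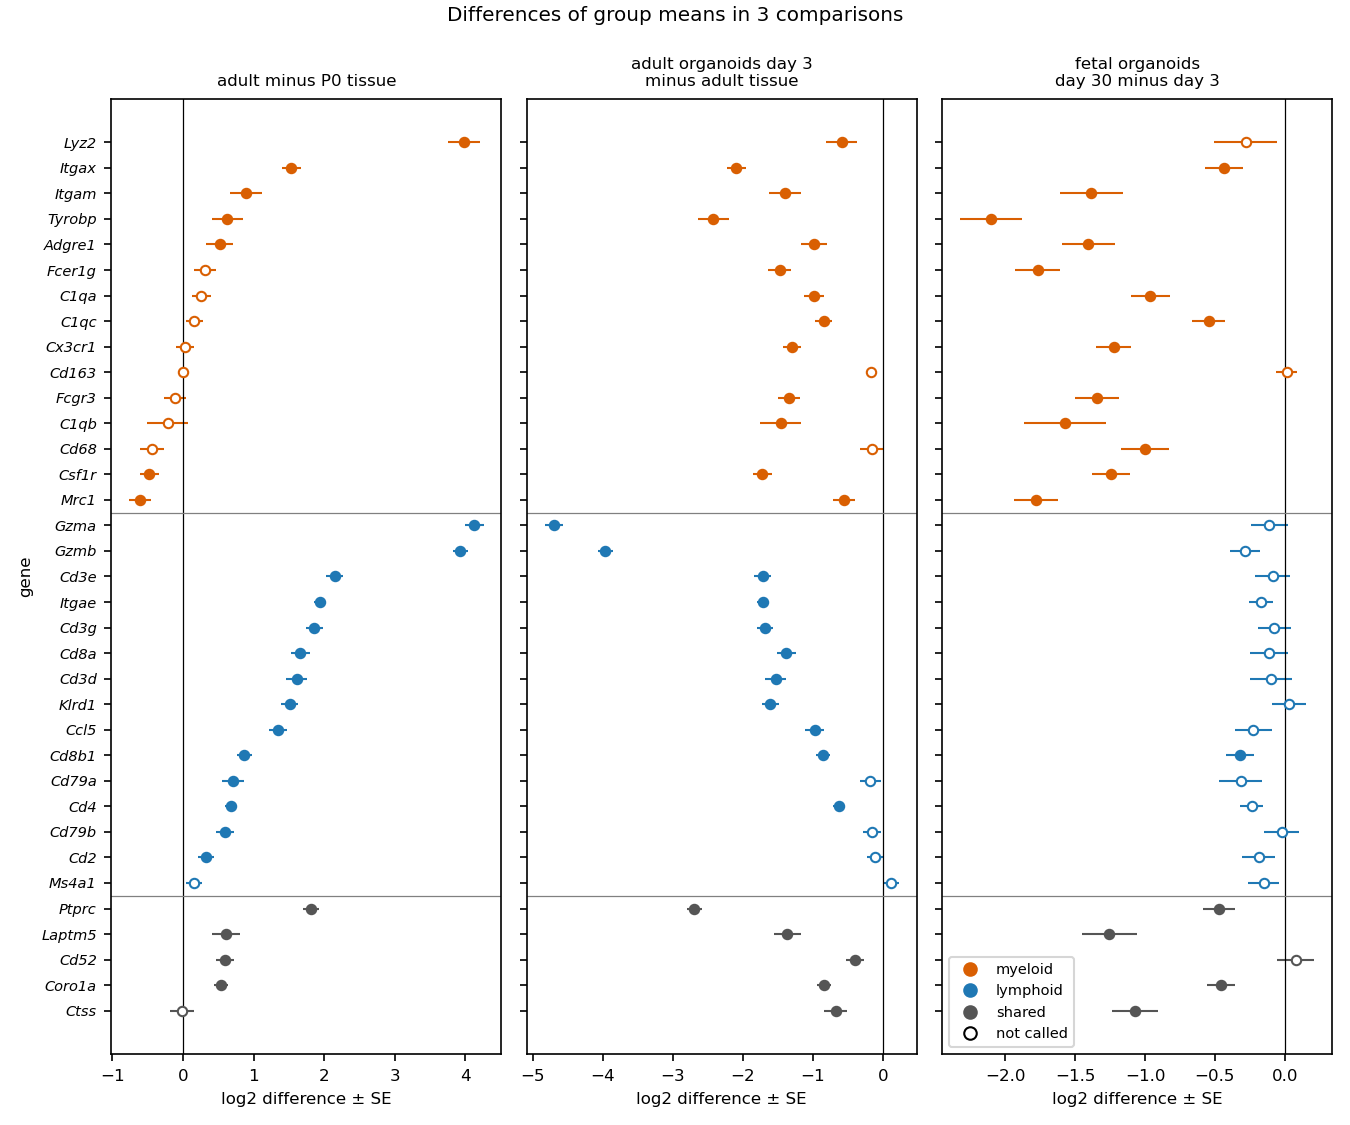
Log2 difference of group means ± SE for each of the 35 genes in 3 comparisons (filled points were called at a limma adjusted p under 0.05, open points were not). Lymphoid genes lie to the right of 0 between the tissues and near 0 in fetal organoids over time, where 13 of 15 myeloid genes were called lower.

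Adult organoids at day 3 were compared with adult tissue, which shows how levels of the panel differ early in culture. Levels were lower across the panel: 29 of 35 members were called lower and 0 higher, while 35.4% of all genes were called, 13.5% as lower and 21.9% as higher. These were 13 of 15 myeloid genes (median -1.29), 11 of 15 lymphoid genes (median -1.38) and 5 of 5 shared genes. The comparison shares its adult tissue arrays with the comparison above, so the values of the 2 are not separate evidence.

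Gzma read 3.79, 3.41, 3.66 and 3.35 in these organoids (-4.70 ± 0.13 against adult tissue, adjusted p = 3.4e-17) and Gzmb 3.70, 3.58, 4.04 and 3.85 (-3.96 ± 0.11, adjusted p = 2e-17). Ptprc read 3.59, 3.00, 3.46 and 3.03 (-2.69 ± 0.11, adjusted p = 3.1e-14). All 3 lay below the background in the organoids and on every array below the adult tissue. Cd3e read 4.64, 4.73, 4.55 and 4.45 (-1.72 ± 0.12, adjusted p = 2e-10). The lymphoid genes not called were Cd79a (-0.18 ± 0.15), Cd79b (-0.15 ± 0.12), Cd2 (-0.12 ± 0.12) and Ms4a1 (0.12 ± 0.11).

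Tyrobp had the largest myeloid difference, from 6.38, 7.31, 7.43 and 7.98 in adult tissue to 5.04, 4.89, 5.15 and 4.34 in organoids (-2.42 ± 0.22, adjusted p = 6.8e-09). Itgax (-2.09 ± 0.14, adjusted p = 3.8e-11), Csf1r (-1.72 ± 0.14, adjusted p = 6.1e-10) and Fcer1g (-1.47 ± 0.16, adjusted p = 8.8e-08) followed. Adgre1 read 4.01, 3.96, 4.07 and 4.01, below the background (-0.98 ± 0.19, adjusted p = 0.00019). Cd68 (-0.15 ± 0.17, adjusted p = 0.56) and Cd163 (-0.17 ± 0.08, adjusted p = 0.096) were not called. Lyz2 read 10.44, 10.04, 10.07 and 9.70 and was called lower by a narrow margin (-0.59 ± 0.23, adjusted p = 0.046), a call that ended without adult tissue replicate 1, 2 or 3 or organoid replicate 2, 3 or 4.

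Of the wider macrophage list, 23 of 35 were lower and 1 higher, Cd14, a receptor for bacterial lipopolysaccharide (0.54). The transcription factor gene Maf (-2.42 ± 0.37), Ms4a7 (-2.42 ± 0.25), Mertk, a receptor for the uptake of dying cells (-1.97 ± 0.23), and Fcgr4, an IgG receptor (-1.94 ± 0.20), were among the lower genes. Of the wider T cell list, 16 of 26 were lower and 1 higher, Bcl11b (0.65 ± 0.17), a transcription factor gene. Of the genes of other layers, 11 of 11 mesenchymal genes (5.15 to 6.09 as a mean level in these organoids) and 8 of 8 endothelial genes (4.30 to 4.41) were lower, and of 12 epithelial genes 5 were higher and 5 lower.

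Fetal organoids at day 3 were compared with P0 intestine in the same way, with a different outcome for the myeloid genes. Of 15, 4 were called higher, 2 lower and 9 not called (median 0.07, against 0.14 over all genes), while 44.3% of all genes were called, 30.5% as higher and 13.8% as lower. The myeloid counts were thus no more than the shares of all genes. Of 15 lymphoid genes, 5 were called higher by 0.23 to 0.42 and 1 lower, and of 5 shared genes, 1 higher and 2 lower. The count of lymphoid genes called higher was near the share of all genes called higher (30.5%). The shared gene called higher, Laptm5 (0.54 ± 0.20, adjusted p = 0.031), had a difference of 0.10 (adjusted p = 0.7) without fetal arrays 2 and 3.

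Adgre1 read 4.46, 5.94, 5.27 and 5.66 in fetal organoids and 4.55, 4.62, 4.37 and 4.38 in P0 tissue (0.85 ± 0.19, adjusted p = 0.001). Fetal replicate 1 overlapped the P0 arrays and the other 3 lay above them. Itgam read 5.58, 6.91, 6.91 and 5.92 (0.84 ± 0.23, adjusted p = 0.0049), with replicates 2 and 3 above the other pair, and its difference was 0.26 (adjusted p = 0.27) without them. Cd68 read 6.54, 7.24, 7.21 and 7.57 (0.44 ± 0.17, adjusted p = 0.038), a call that ended with arrays centred on their median (0.36, adjusted p = 0.13) and without fetal arrays 2 and 3 (0.36, adjusted p = 0.19). Lyz2 was higher by 2.70 ± 0.23 (adjusted p = 3.5e-09).

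Tyrobp read 6.63, 6.98, 6.96 and 7.0 in fetal organoids and 6.62, 6.61, 6.69 and 6.66 in P0 tissue (0.25 ± 0.22, adjusted p = 0.37). Mrc1 read 5.89, 6.64, 6.42 and 6.06 (0.28 ± 0.16, adjusted p = 0.15). C1qa (0.05 ± 0.14), C1qb (-0.24 ± 0.29) and C1qc (0.07 ± 0.12) were not called either. Csf1r was lower, at 5.92, 5.97, 6.0 and 6.17 against 6.89 to 7.25 in P0 tissue (-1.11 ± 0.14, adjusted p = 8.5e-07), and so were Ptprc (-0.59 ± 0.11, adjusted p = 0.00025) and Ctss (-0.94 ± 0.17, adjusted p = 9.2e-05). Both group means of Ptprc lay below the background. Cd163 was called lower by 0.21 ± 0.08 (adjusted p = 0.031), a call that ended without P0 replicate 4 (adjusted p = 0.13) and without fetal arrays 2 and 3 (-0.14, adjusted p = 0.22). Fcgr3 was not called (-0.28 ± 0.16, adjusted p = 0.15), but was called lower without those arrays (-0.58, adjusted p = 0.01).

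The lymphoid calls were small and depended on the scaling. Cd79a (0.42 ± 0.15), Ccl5 (0.39 ± 0.13), Cd3e (0.36 ± 0.12), Cd2 (0.30 ± 0.12) and Itgae (0.23 ± 0.08) were called higher, and Gzma lower (-0.62 ± 0.13, adjusted p = 0.0006) with both group means below the background. The P0 means of Cd79a, Cd3e, Cd2 and Itgae lay below the background too. With arrays centred on their median 1 lymphoid gene was called higher, and after a second quantile normalization 0. Without P0 replicate 3 the count was 0 and without fetal replicate 1 it was 1. Without fetal arrays 2 and 3, Ccl5 (0.33, adjusted p = 0.12), Cd2 (0.37, adjusted p = 0.052) and Itgae (0.22, adjusted p = 0.098) were not called, and Gzmb was called higher (0.43, adjusted p = 0.0082). Over all called genes the share higher was 68.9%, or 54.3% with centred arrays.

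Lists of other cell types differed in either direction here. In fetal organoids at day 3, 11 of 11 mesenchymal genes were lower than in P0 tissue (median -1.69; mean levels of 5.92 to 6.75 against 8.31 to 8.92), and 8 of 8 endothelial genes were lower (median -2.26; 4.73 to 5.05 against 6.86 to 7.36). Of 12 epithelial genes, 7 were higher and 2 lower (10.12 to 10.29 against 9.59 to 9.69), and of 8 dissociation and stress response genes, 5 were higher and 0 lower (6.72 to 7.04 against 6.52 to 6.74). Their part in the leukocyte values was not tested. Of the wider macrophage list, 10 of 35 were higher and 6 lower (median 0.11, against 0.14 over all genes). These counts were near the shares of all genes called higher (30.5%) and lower (13.8%). The chemokine gene Ccl2 (1.83 ± 0.19, adjusted p = 8.3e-08) was among the higher genes, and Mertk (-2.57 ± 0.23, adjusted p = 1.2e-08), Lyve1 (-2.16 ± 0.15) and Maf (-1.60 ± 0.37) were among the lower ones. Of 14 neutrophil genes, 4 were higher, 1 lower and 9 not called (median 0.10, against 0.14 over all genes). These counts were no more than the shares of all genes called higher (30.5%) and lower (13.8%). Ly6g, a surface antigen of neutrophils, averaged 7.58 ± 0.35 (SD, n = 4) in these organoids and between 4.53 and 4.88 in the other 5 groups.

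Both days of fetal culture were then compared, which shows whether the levels of the myeloid genes lasted. Myeloid genes fell: 13 of 15 were called lower and 0 higher (median -1.24, against -0.03 over all genes), and no day 30 array overlapped a day 3 array for those 13. Over all genes 15.5% were called, 8.76% as lower and 6.77% as higher, and 9.13% were lower without overlap. Of 15 lymphoid genes, 1 was called lower and 0 higher (median -0.15), and of 5 shared genes 4 were lower. Without fetal day 3 arrays 2 and 3, on which Itgam was highest, 13 myeloid genes were also called lower.

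Tyrobp fell from 6.63, 6.98, 6.96 and 7.0 to 4.97, 4.72, 5.03 and 4.43 (-2.10 ± 0.22, adjusted p = 6.5e-07). Mrc1 fell from 5.89, 6.64, 6.42 and 6.06 to 4.28, 4.45, 4.35 and 4.79 (-1.78 ± 0.16, adjusted p = 5.9e-08). Fcer1g fell from 6.69, 6.74, 6.31 and 6.28 to 4.64, 4.67, 4.85 and 4.78 (-1.77 ± 0.16, adjusted p = 7.1e-08). These 3 were called lower by the most, followed by C1qb (-1.58 ± 0.29), Adgre1 (-1.41 ± 0.19), Itgam (-1.38 ± 0.23), Fcgr3 (-1.34 ± 0.16), Csf1r (-1.24 ± 0.14) and Cx3cr1 (-1.23 ± 0.13).

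Csf1r read 4.61, 4.73, 4.84 and 4.90 at day 30, and Adgre1 read 3.88 to 3.99, below the background. Cd68 fell by 1.00 on the log2 scale (SE 0.17, adjusted p = 0.00023), C1qa by 0.96 (SE 0.14) and C1qc by 0.55 (SE 0.12). Itgax fell least of the called myeloid genes (-0.43 ± 0.14, adjusted p = 0.032), a call that ended without fetal day 3 replicate 1 or 4 or day 30 replicate 2, 3 or 4 (adjusted p from 0.055 to 0.095). Lyz2 read 8.23 to 9.65 at day 30 (-0.28 ± 0.23, adjusted p = 0.46) and Cd163 3.94 to 4.03 (0.01 ± 0.08), and neither was called. Of the shared genes, Laptm5, a lysosomal membrane protein of leukocytes, fell from 5.96, 7.07, 7.13 and 6.47 to 5.26, 5.38, 5.81 and 5.17 (-1.26 ± 0.20, adjusted p = 0.00011). Ctss fell by 1.07 (SE 0.17), Ptprc by 0.47 (SE 0.11) and Coro1a, an actin regulator of leukocytes, by 0.46 (SE 0.10), while Cd52 was not called (0.08 ± 0.13). The Ptprc means of both days lay below the background.

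The lymphoid gene called lower was Cd8b1, from 4.82 to 4.97 at day 3 to 4.42 to 4.70 at day 30 (-0.32 ± 0.10, adjusted p = 0.031), and the call ended with arrays centred on their median (-0.23, adjusted p = 0.062) and without fetal day 3 arrays 2 and 3 (-0.34, adjusted p = 0.093). Without those arrays Gzmb was called lower (-0.46, adjusted p = 0.016). Cd3e (-0.09 ± 0.12), Cd8a (-0.11 ± 0.14), Cd4 (-0.24 ± 0.08), Gzma (-0.11 ± 0.13), Gzmb (-0.28 ± 0.11), Itgae (-0.17 ± 0.08), Cd79a (-0.32 ± 0.15) and Ms4a1 (-0.15 ± 0.11) had adjusted p between 0.057 and 0.7.

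The 250 bases before Mrc1 and Itgam are shown because both genes fell in fetal cultures, each in a different macrophage role. They were searched for GAGGAA, letters found in sites of the myeloid factor PU.1 and of related ETS factors, on both strands, so also as TTCCTC, and the matches are in capitals. Neither this motif nor TGTGGT contains the other. The sequences are from RefSeq on build GRCm38.p6, 5′ to 3′ on the plus strand, at chr2:14229164-14229413 for Mrc1 and chr7:128062390-128062639 for Itgam.
Mrc1: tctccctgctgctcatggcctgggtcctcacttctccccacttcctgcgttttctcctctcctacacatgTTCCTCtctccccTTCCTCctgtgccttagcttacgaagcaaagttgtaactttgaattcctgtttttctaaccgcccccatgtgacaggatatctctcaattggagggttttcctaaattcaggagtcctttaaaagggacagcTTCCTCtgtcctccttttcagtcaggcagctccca
Itgam: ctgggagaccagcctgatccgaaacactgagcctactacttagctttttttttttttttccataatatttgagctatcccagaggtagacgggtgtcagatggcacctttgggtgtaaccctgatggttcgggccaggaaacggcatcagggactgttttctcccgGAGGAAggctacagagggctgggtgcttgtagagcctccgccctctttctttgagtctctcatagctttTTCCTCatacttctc
Mrc1 has 3 matches, at 180, 167 and 35 bases before the start, and Itgam has 2, at 84 and 15 bases before it. The motif is in 23.3% of all 32851 windows, in 6 of 11 myeloid members, in 4 of 7 lymphoid members and in 3 of 4 shared members that have a window. The motif is thus found in both classes.

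Genes of other lists were also lower in fetal organoids at day 30. Of the wider macrophage list, 21 of 35 were lower and 1 higher (median -0.64). Ccl2 (-1.99 ± 0.19), C3ar1, a receptor for complement C3a (-1.85 ± 0.18), Ms4a7 (-1.84 ± 0.25) and Fcgr4 (-1.63 ± 0.20) were among those that fell, and Irf8, a transcription factor gene of myeloid and B cell development, rose (0.85 ± 0.11, adjusted p = 1e-05). Of 14 neutrophil genes, 8 were lower, among them Ly6g (-3.0 ± 0.17, adjusted p = 7.3e-11), Mmp9, a gelatinase (-2.08 ± 0.20), Mmp8, a collagenase (-1.37 ± 0.27), and S100a8, a calcium-binding protein (-0.81 ± 0.21). Of the wider T cell list, 1 of 26 was lower and 1 higher.

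Of 11 mesenchymal genes 10 were lower (5.92 to 6.75 as a mean level at day 3 and 5.06 to 5.36 at day 30), and of 8 endothelial genes 6 were lower (4.73 to 5.05 and 4.23 to 4.32). Of 12 epithelial genes, 2 were higher and 1 lower (10.12 to 10.29 and 9.98 to 10.22). Of 8 dissociation and stress response genes, 4 were lower and 0 higher (median -0.45; mean levels of 6.72 to 7.04 at day 3 and 6.06 to 6.54 at day 30). Their part in the fall of the myeloid genes was not tested.

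**Figure D4:**
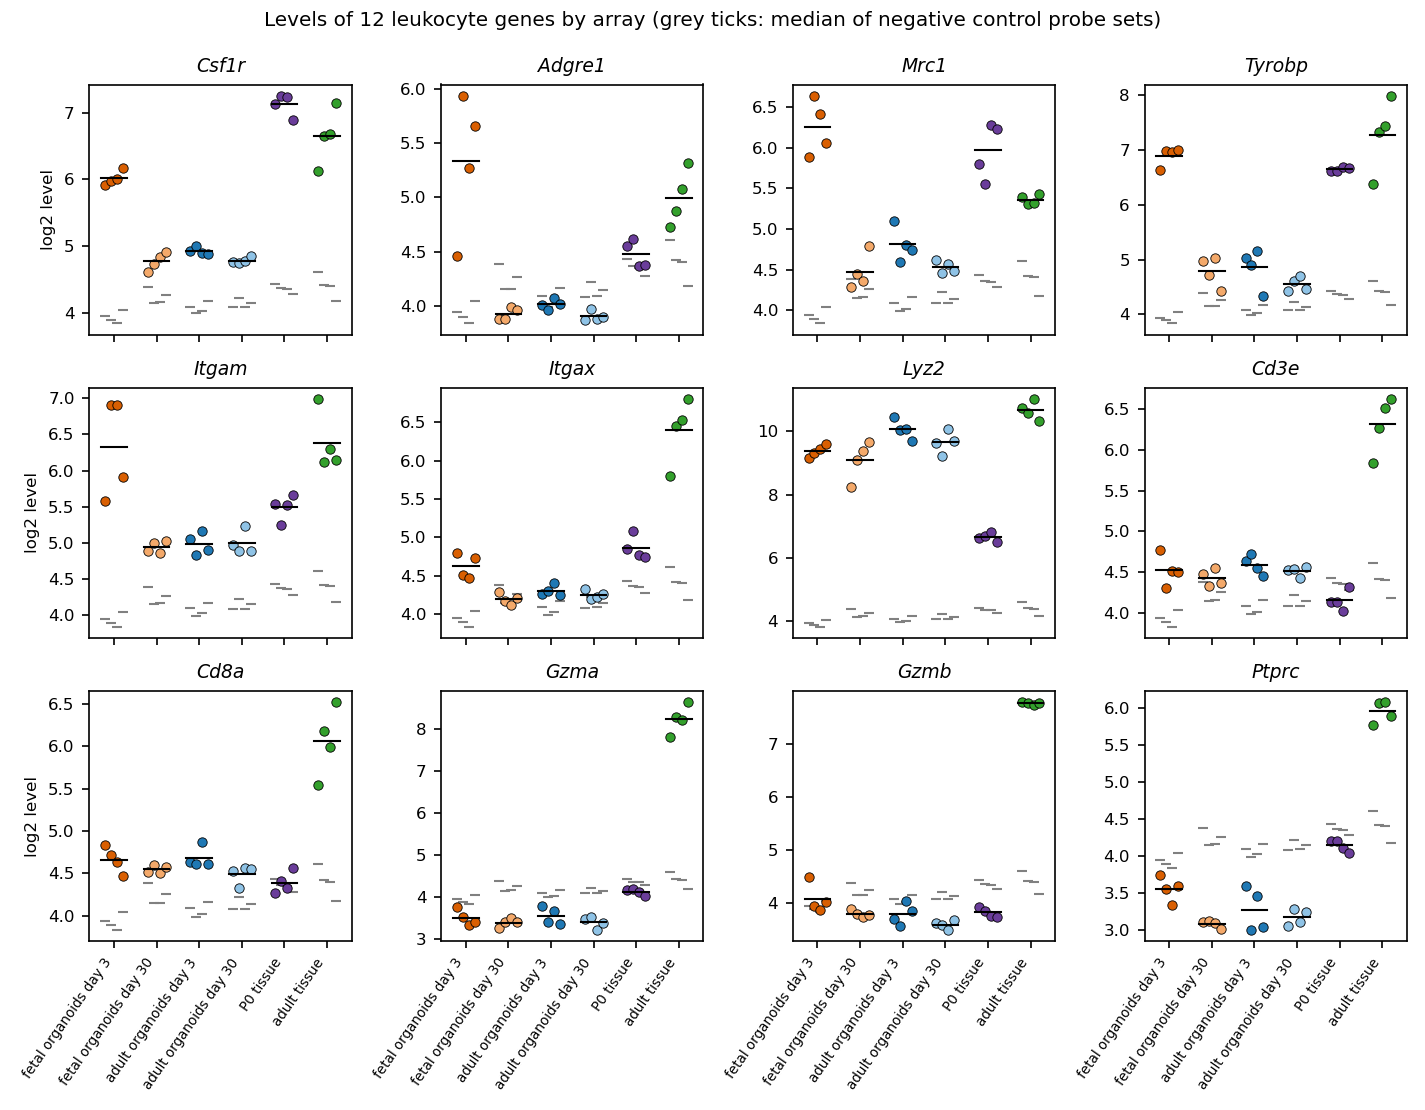
Log2 level of 12 leukocyte genes on each array (points), with the group mean (black line) and each array's negative control median (grey ticks); each panel has its own axis. Csf1r, Mrc1 and Tyrobp are above the background in fetal organoids at day 3 and lower at day 30, while Gzma and Gzmb are highest in adult tissue; the fetal day 3 mean of Gzmb (4.09) also lies just above the background (3.93).

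Adult organoids were compared between the same days. No member was called: 0 of 35 with limma, 2 at an unadjusted p under 0.05, and 0.0489% of all genes were called, 0.0261% as higher and 0.0228% as lower. The count was also 0 in every alternative run. Tyrobp read 5.04, 4.89, 5.15 and 4.34 at day 3 and 4.43, 4.62, 4.71 and 4.47 at day 30 (-0.30 ± 0.22, adjusted p = 0.83), and Mrc1 differed by -0.28 ± 0.16 (adjusted p = 0.7). The myeloid median was -0.15 and the lymphoid median -0.14. Myeloid levels in adult organoids were already low at day 3, with a class mean of 5.20 to 5.43 against 5.14 to 5.22 at day 30.

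The difference between the culture changes, fetal minus adult, was tested directly. It was called negative for 10 of 15 myeloid genes, 0 of 15 lymphoid genes and 2 of 5 shared genes, while 2.99% of all genes were called, 1.97% with a more negative and 1.02% with a more positive fetal change. Tyrobp (-1.80 ± 0.31, adjusted p = 0.0014), Fcer1g (-1.56 ± 0.23, adjusted p = 0.00021) and Mrc1 (-1.50 ± 0.22, adjusted p = 0.00029) differed most. Itgam (-1.39), Adgre1 (-1.30), Fcgr3 (-1.11), Csf1r (-1.10), Cd68 (-1.08), Cx3cr1 (-1.07) and C1qa (-0.79) were the other myeloid calls, and Laptm5 (-1.14) and Ctss (-0.90) the shared ones. For C1qb the difference was -1.29 ± 0.42 (adjusted p = 0.11), and it was called without fetal day 3 replicate 1 (-1.56, adjusted p = 0.029). Without fetal day 3 arrays 2 and 3, 6 myeloid genes were called, and Itgam (-0.81), Cd68 (-1.0), C1qa (-0.84) and Fcgr3 (-0.81) were not, nor were Laptm5 (-0.69, adjusted p = 0.19) and Ctss (-0.89, adjusted p = 0.11). The calls of C1qa, Laptm5 and Ctss also ended without 1 of several single arrays, with adjusted p from 0.05 to 0.083. Both shared calls ended in a fit of the organoid groups alone (adjusted p = 0.059 for Laptm5 and 0.11 for Ctss) and with arrays centred on their median (0.05 and 0.08), and that of Ctss with the replicate number as a block (0.062). At an unadjusted p under 0.05 the lymphoid count was 0.

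Adult and fetal organoids were compared at each day. At day 3, 12 of 15 myeloid genes were lower in adult organoids and 1 higher (median -1.09), 24.6% of all genes were called, 10.1% as lower and 14.5% as higher. Tyrobp (-2.04 ± 0.22, adjusted p = 6.7e-07), Fcer1g (-1.47 ± 0.16), Mrc1 (-1.44 ± 0.16) and C1qb (-1.43 ± 0.29) differed most. Csf1r read 4.92, 5.01, 4.89 and 4.88 in adult organoids against 5.92 to 6.17 in fetal ones (-1.09 ± 0.14, adjusted p = 3.6e-06). The myeloid gene called higher was Lyz2 (0.69 ± 0.23, adjusted p = 0.027), which lost its call after a second quantile normalization (0.50, adjusted p = 0.058) and without replicate 1 or 2 of either group. Without fetal arrays 2 and 3, Lyz2 (0.70, adjusted p = 0.1), Cd79b (0.27, adjusted p = 0.25) and the shared gene Coro1a (-0.33, adjusted p = 0.065, against -0.40 and 0.0042 with them) were not called. Of 15 lymphoid genes, Cd79b was called higher (0.34 ± 0.12, adjusted p = 0.046) and Gzmb lower (-0.29 ± 0.11, adjusted p = 0.046), and both calls ended in a fit of the 2 groups alone (adjusted p = 0.1 and 0.21).

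At day 30 few members differed by this test, which does not show that the cultures were alike. Of 35 members 1 was called, while 8.97% of all genes were, 6.8% as higher and 2.17% as lower in adult organoids. Ctss read 8.0, 8.01, 7.88 and 7.84 in adult organoids and 6.93, 7.21, 6.40 and 6.56 in fetal organoids, without overlap (1.16 ± 0.17, adjusted p = 0.00013). The differences of the other 34 members lay between -0.26 for C1qc and 0.56 for Lyz2, with adjusted p of 0.14 or more. At an unadjusted p under 0.05, 3 members passed. These comparisons share their organoid arrays with the culture comparisons, so they are not separate evidence.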

How the data were processed

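Per the labels, 1 µg of total RNA per sample was made into biotin-labelled cRNA. Per the submitters' processing notes, the arrays were processed with Affymetrix Expression Console and RMA (background correction, quantile normalization and probe summary); for their versions and the genome build, nothing is given in the sources used here. The deposited values are the log2 signals that the authors obtained this way, and they were used without further scaling. Precision is limited by the number of arrays.

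Of 65956 non-control probe sets, 31258 named 1 gene in the platform annotation and 1492 named several, which were not used. For the 441 genes with several probe sets the one with the highest mean was kept, which left 30702 genes. Symbols were updated through RefSeq tables for 1152 probe sets. limma 3.58.1 (R 4.3.3) was fitted to all genes with the 6 group means (18 residual degrees of freedom), 8 comparisons were drawn from it, and p-values were adjusted by Benjamini and Hochberg's method within each. The procedure was tested on simulated data. The members and lists were chosen with earlier results of these data known, so their counts are a description, read against the share of all genes called. Values are printed for members that are extreme in their class, that go against it or that define a lineage, and for up to 4 called genes of each other list. Promoter windows came from RefSeq (GRCm38.p6). Same-numbered arrays were checked for pairing and share only a number. Alternatives were other probe set, filter, prior, sample, scaling and block choices, each array left out in turn, and, chosen after seeing the data, pairs of arrays left out.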

Additional observations from a re-analysis of the deposited data

Results flagged for a closer look

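In 14 of 210 sets of 4 arrays (6.67%), 1 array lay far from the other 3 by Dixon's criterion, which chance gives in about 1 set in 20. Among myeloid and shared genes these were C1qc on adult tissue replicate 4 (6.36, others 5.71 to 5.79), Fcgr3 on adult day 30 replicate 4 (4.75, others 4.93 to 4.95), Tyrobp on fetal day 3 replicate 1 (6.63, others 6.96 to 7.0) and Ctss on P0 replicate 4 (8.59, others 8.85 to 8.87). Among T and natural killer cell genes they were Cd3g on P0 replicate 1 (3.58, others 3.67 to 3.69), Cd8a on adult day 3 replicate 3 (4.87) and on adult day 30 replicate 2 (4.33), Cd8b1 on adult day 30 replicate 3 (4.63), Ccl5 on P0 replicate 4 (5.71) and on adult tissue replicate 3 (6.35, others 6.93 to 7.01), and Klrd1 on fetal day 3 replicate 1 (2.79). Among B cell genes they were Cd79a on fetal day 3 replicate 1 (5.02, others 4.30 to 4.38) and on P0 replicate 4 (4.26), and Cd79b on fetal day 30 replicate 2 (5.0, others 4.78 to 4.81). Of these arrays, fetal day 3 replicate 1 had the highest background probe level, whose part in its values was not tested.

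The change from day 3 to day 30 differed between fetal and adult organoids for 12 members by limma's test of the difference itself. The log2 differences, fetal minus adult, were -1.80 for Tyrobp, -1.56 for Fcer1g, -1.50 for Mrc1, -1.39 for Itgam, -1.30 for Adgre1, -1.14 for Laptm5, -1.11 for Fcgr3, -1.10 for Csf1r, -1.08 for Cd68, -1.07 for Cx3cr1, -0.90 for Ctss and -0.79 for C1qa. No lymphoid gene was among them. Laptm5 and Ctss lost their calls in a fit of the organoid groups alone (adjusted p = 0.059 and 0.11) and with centred arrays (0.05 and 0.08), and Ctss also with the replicate block (0.062).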

How the results depend on the processing

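No called member changed direction under any alternative run. With arrays centred on their median, 3 myeloid genes were called higher in adult than in P0 tissue (5 otherwise), and in fetal organoids at day 3 against P0 tissue 4 myeloid genes were lower (2) and 1 lymphoid gene higher (5). Fits of the compared groups alone gave 1 and 3 for the last pair, a filter on dim genes gave 1 myeloid gene lower, and a second quantile normalization gave 0 lymphoid genes higher. The 1 lymphoid gene lower in fetal organoids over time became 0 with the groups alone, centred arrays and quantile normalization. In adult against fetal organoids at day 3, the 1 myeloid gene higher became 0 after quantile normalization and without fetal day 3 arrays 2 and 3, the 1 lymphoid gene higher became 0 with the groups alone, with the replicate block and without those arrays, and the 1 lymphoid gene lower became 0 with the groups alone and centred arrays. Without P0 arrays 2 and 3, the tissues gave 2 myeloid genes higher and 1 lower, and fetal organoids against P0 tissue gave 2 myeloid and 0 lymphoid genes higher. Without P0 arrays 1 and 4 these were 3 myeloid genes higher between the tissues, and 1 myeloid gene lower and 2 lymphoid genes higher for the fetal organoids. Without fetal day 3 arrays 2 and 3, 2 myeloid and 3 lymphoid genes were higher than in P0 tissue, and 6 myeloid genes differed in culture change (10 otherwise). Leaving out 1 array at a time gave 3 to 7 myeloid genes higher between the tissues, 1 to 3 myeloid genes lower and 0 to 6 lymphoid genes higher in fetal organoids against P0 tissue, 0 to 2 lymphoid genes lower over time in fetal organoids, 0 to 1 for each of the 3 single calls between adult and fetal organoids at day 3, and 0 to 1 myeloid genes higher at day 30. The causes were not tested. Fetal falls (12 to 13 of 15 myeloid genes) and adult tissue lymphoid calls (13 to 14 of 15) held within those ranges when 1 array at a time was left out. Over the other alternatives they were 12 to 13 and 10 to 14. The filter on dim genes kept only 10 of the 15 lymphoid genes. Same-numbered arrays of 2 groups correlated between -0.31 and 0.30, and the replicate block moved 1 other count by over 1.5 times, the shared genes that differ in culture change (1, against 2), which was 0 with the groups alone and with centred arrays. The signal over background limits Cd4, Klrd1 and Ms4a1, whose means lay below the background in all 6 groups.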

Other observations

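Genes of lymphocyte homing and survival, which are not in the leukocyte panel, also differed between the tissues. Of 20 homing receptors and ligands, 11 were higher and 2 lower in adult than in P0 tissue, where 15% of all genes were called higher and 12.2% lower, the background for each list compared between the tissues here. Cxcl9, an interferon-induced chemokine that attracts T cells, was higher by 2.56 ± 0.12 (adjusted p = 8.4e-14). Ccr9, the receptor that directs lymphocytes to the small intestine, and its epithelial ligand Ccl25 were both higher by 0.81 (SE 0.09 and 0.15, limma adjusted p = 1.1e-07 and 0.00024). Both genes lower in adult tissue, Cxcl13, which organises lymphoid follicles (-0.62 ± 0.22), and Madcam1, the vascular addressin of the gut (-0.55 ± 0.11), are known from lymphoid tissue and vessels. In organoids Ccl25 was not called against adult tissue (0.13 ± 0.15, adjusted p = 0.6), while Ccl20, a chemokine of the epithelium over lymphoid follicles, was higher in adult (2.41 ± 0.53) and fetal organoids (4.12 ± 0.53) than in the respective tissue.

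Of 11 lymphocyte survival factors and butyrophilin-like genes, 7 were higher in adult tissue than in P0 tissue, among them Il15, which sustains intraepithelial lymphocytes (1.34 ± 0.18, adjusted p = 3.7e-06), its receptor chain Il2rb (1.83 ± 0.11) and Tnfsf13b, the B cell survival factor BAFF (2.03 ± 0.14). Epithelial cells use some butyrophilin-like genes to select intraepithelial gamma-delta T cells. Of 4 butyrophilin-like genes, 4 were called lower in adult organoids than in adult tissue (13.5% of all genes) and 4 in fetal organoids at day 3 than in P0 tissue (13.8%). Btnl6 differed by -2.58 ± 0.21 in adult organoids at day 3 against adult tissue (adjusted p = 1.5e-09) and by -2.38 ± 0.21 in fetal organoids against P0 tissue (adjusted p = 1.2e-08), and Btnl4 by -1.95 ± 0.20 and -1.56 ± 0.20. Btnl2 differed by -1.37 ± 0.22 and -2.23 ± 0.22, and Btnl1 by -1.23 ± 0.19 and -1.84 ± 0.19. Btnl1 was not called between the tissues (0.47 ± 0.19, adjusted p = 0.075). Jchain, of secreted IgA and IgM, had a larger difference between the tissues than any member of the panel (6.20 ± 0.20, adjusted p = 3.4e-16). Of 8 plasma cell genes, 7 were higher and 1 lower, Prdm1 (-1.51 ± 0.24), which the newborn epithelium of mice is known to express. Of 14 B cell genes 10 were higher, of 12 dendritic cell genes 6 higher and 2 lower, and of 10 natural killer and innate lymphoid genes 6 higher and 1 lower. The dendritic cell list includes the panel member Itgae, and shares Ccr7 with the homing list. Other leukocyte lists did not rise: of 14 neutrophil genes 2 were higher and 2 lower (median 0.08). Of 12 mast cell and basophil genes, 1 was higher and 3 lower (median 0.005).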
